A study of Mus musculus with 29 samples.

Results

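Expression of 10 genes of immature neurons was examined in the retinas of 5 mouse strains before and after retinal maturation. The genes were Sox11, Sox4, Dcx, Stmn1, Stmn2, Tubb3, Dpysl3, Crmp1, Elavl4 and Igfbpl1. They were chosen by name, as genes known from neurons that have left the cell cycle and are still extending processes, and the rule used no measured value, although the list was drawn up with earlier results of these data known. Every probe set annotated to one of them was used, which gave 32 of the 45101 probe sets, and the genes are 10 of the 18194 genes with a value. The mice were C57BL6/J, the reference strain, 3 further strains of other genetic background (NOD.NON-H2-nb1, AKR/J and CAST/EiJ), and RD7, a strain in which the nuclear receptor gene Nr2e3 is mutated. The labels give no allele, treatment or background strain for RD7. Retinas were taken at E18.5, shortly before birth, and at P30.5, when the retina is mature. Each group had 3 arrays, except AKR/J at E18.5 with 2, and by the methods each array held 1 of 3 separate pools, every pool made from the RNA of 10 retinas, so that the spread between arrays is one between pools.

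New neurons of the retina arise from dividing progenitors, leave the cell cycle, migrate to their layer, grow an axon and dendrites and only later build synapses. Sox11 and Sox4 are transcription factors of the SoxC group that turn on neuronal genes in newborn neurons. Dcx, Stmn1, Stmn2 and Tubb3 make or regulate the microtubules of growing processes, Dpysl3 and Crmp1 belong to the collapsin response mediator proteins that act in growth cones, Elavl4 is an RNA-binding protein of neurons, and Igfbpl1 is a secreted protein of the insulin-like growth factor binding protein family. Ganglion cells, horizontal cells and many amacrine cells are born before birth in the mouse, whereas most rods, bipolar cells and Müller glia are born around or after it.

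The promoters of the 4 genes whose change with age is described in most detail are shown here, as the 250 bases before and the 50 bases after the annotated start (RefSeq, GRCm38.p6), written 5′ to 3′ on the strand of the gene. Promoters of 6 of the 10 genes were searched for motifs. Those of Stmn1, Stmn2 and Igfbpl1 were not listed in the promoter set used, and that of Dpysl3 was left out. These genes are named only. Capitals mark the letters of 4 motifs, found on either strand: CCAAT, known as the CAAT box, then TATAAA, known as the TATA box, then GGGCGG, known as the GC box, and also ACAAAG, a motif bound by SOX proteins. The windows lie at chr12:27342669-27342968 on the minus strand for Sox11, chr13:28953650-28953949 on the minus strand for Sox4, chrX:143933170-143933469 on the minus strand for Dcx, and chr8:123411303-123411602 on the plus strand for Tubb3.
Sox11: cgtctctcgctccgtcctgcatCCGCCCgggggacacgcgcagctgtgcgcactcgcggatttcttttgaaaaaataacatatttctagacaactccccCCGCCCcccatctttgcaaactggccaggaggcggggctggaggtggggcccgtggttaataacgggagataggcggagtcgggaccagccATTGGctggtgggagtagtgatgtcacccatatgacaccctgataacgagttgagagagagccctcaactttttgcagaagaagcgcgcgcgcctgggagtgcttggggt
Sox4: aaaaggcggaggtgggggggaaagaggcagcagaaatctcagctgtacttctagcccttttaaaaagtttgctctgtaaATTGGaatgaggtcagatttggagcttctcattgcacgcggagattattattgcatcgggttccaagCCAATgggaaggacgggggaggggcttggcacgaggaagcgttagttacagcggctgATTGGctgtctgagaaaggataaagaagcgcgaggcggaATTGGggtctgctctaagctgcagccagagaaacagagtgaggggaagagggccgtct
Dcx: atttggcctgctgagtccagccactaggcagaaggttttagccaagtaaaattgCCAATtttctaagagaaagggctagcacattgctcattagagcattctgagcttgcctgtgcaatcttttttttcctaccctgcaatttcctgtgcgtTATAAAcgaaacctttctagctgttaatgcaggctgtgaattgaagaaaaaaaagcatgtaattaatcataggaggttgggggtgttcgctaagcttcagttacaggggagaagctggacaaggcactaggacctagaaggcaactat
Tubb3: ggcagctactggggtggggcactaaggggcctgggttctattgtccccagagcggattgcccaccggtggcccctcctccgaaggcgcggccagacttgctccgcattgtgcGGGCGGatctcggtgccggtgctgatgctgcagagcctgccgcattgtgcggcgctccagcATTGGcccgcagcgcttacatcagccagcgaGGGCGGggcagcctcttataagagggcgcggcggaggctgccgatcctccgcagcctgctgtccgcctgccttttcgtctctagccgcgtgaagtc
The Sox11 window holds 1 CAAT box and 2 GC boxes, the Sox4 window 4 CAAT boxes, the Dcx window 1 CAAT box and 1 TATA box, and the Tubb3 window 1 CAAT box and 2 GC boxes. The SOX motif is absent from the 4 windows shown, but not from the genes: a second annotated start of Dcx, at chrX:143933075-143933374, holds it at position -8 from the start, and both Crmp1 windows hold it, at -216 and -110. Of several annotated starts of a gene, 1 is shown. Among 32851 promoters of the same length, 37.4% hold a CAAT box, 35.7% a GC box, 13.6% a TATA box and 18.7% the SOX motif.

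The main values were log2 values from robust multi-array averaging (RMA), which the deposited table lists for 56.4% of the probe sets and for 7 of the 10 genes. Stmn1, Tubb3 and Crmp1 are not listed there, and their values are log2(MAS5 signal + 16), so that a fold change of a dim probe set is understated on this scale. One probe set stands for each gene, the brightest on average in the table used, and the others are given beside it. Values of different probe sets are not comparable as levels. A gene is called where limma gave an adjusted p under 0.001 together with a difference of 2-fold or more. The tissue carried the markers of retina: the mean log2 signal of 10 photoreceptor genes lay between 13.2 and 14.2 on the P30.5 arrays and between 6.95 and 8.71 on the E18.5 arrays. A list of 13 skeletal muscle genes differed between the E18.5 arrays. Its mean log2 signal was between 6.0 and 6.23 in C57BL6/J, between 7.15 and 11.8 in RD7, between 6.13 and 11.0 for NOD.NON-H2-nb1 arrays, 11.8 and 11.9 in AKR/J and between 7.71 and 11.1 in CAST/EiJ, whereas it was between 5.58 and 6.80 on all P30.5 arrays. Lists of other tissues of the eye moved as well. At E18.5 the 12 periocular mesenchyme genes were between 5.97 and 7.79 in C57BL6/J and between 11.5 and 11.7 in AKR/J, and the 12 pigment epithelium genes between 7.43 and 8.07 and between 9.84 and 10.4. The 9 lens genes ranged from 4.77 to 13.5 over the E18.5 arrays and from 5.22 to 14.9 over the P30.5 arrays. What part these tissues have in the values of the immature neuron genes was not tested. On the E18.5 arrays the immature neuron genes also moved together within 2 groups. RD7 replicate 3 was the lowest of its group for 10 of the 10 genes, on average 0.45 below its group mean on the log2 scale, and CAST/EiJ replicate 2 was the highest of its group for 10 of the 10 genes, on average 0.50 above it. Values without these arrays are given for the age changes of Sox11 and Tubb3, for Dcx in CAST/EiJ at E18.5 and for counts of calls. For the other results that include these arrays they are not given one by one.

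All 10 genes were lower at P30.5 than at E18.5 in each of the 5 strains. The largest drop was that of Sox11, at between 39.7-fold and 67.0-fold with RMA values and between 33.5-fold and 42.2-fold with MAS5 signals of the same probe set, and Sox11, Sox4, Dcx, Stmn2 and Tubb3 were called lower in 5 of 5 strains. Crmp1 and Elavl4 were called in 4 strains, Dpysl3 in 2, and Stmn1 and Igfbpl1 in 1. By strain, 9 of the 10 genes were called lower in C57BL6/J, where 8.49% of all genes were, 7 in RD7 (8.95%), 8 in NOD.NON-H2-nb1 (7.90%), 5 in AKR/J (7.94%) and 8 in CAST/EiJ (7.82%). None of the 10 was called higher, where 8.39%, 7.38%, 8.45%, 8.45% and 7.30% of all genes were in this order of strains. The median age change of the 10 genes on the log2 scale was -2.01 in C57BL6/J, -1.98 in RD7, -2.43 in NOD.NON-H2-nb1, -1.71 in AKR/J and -2.25 in CAST/EiJ, and over all genes it lay between -0.004 and 0.03. In these whole retinas, fewer cells of a type and less RNA per cell cannot be told apart.

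**Figure D1:**
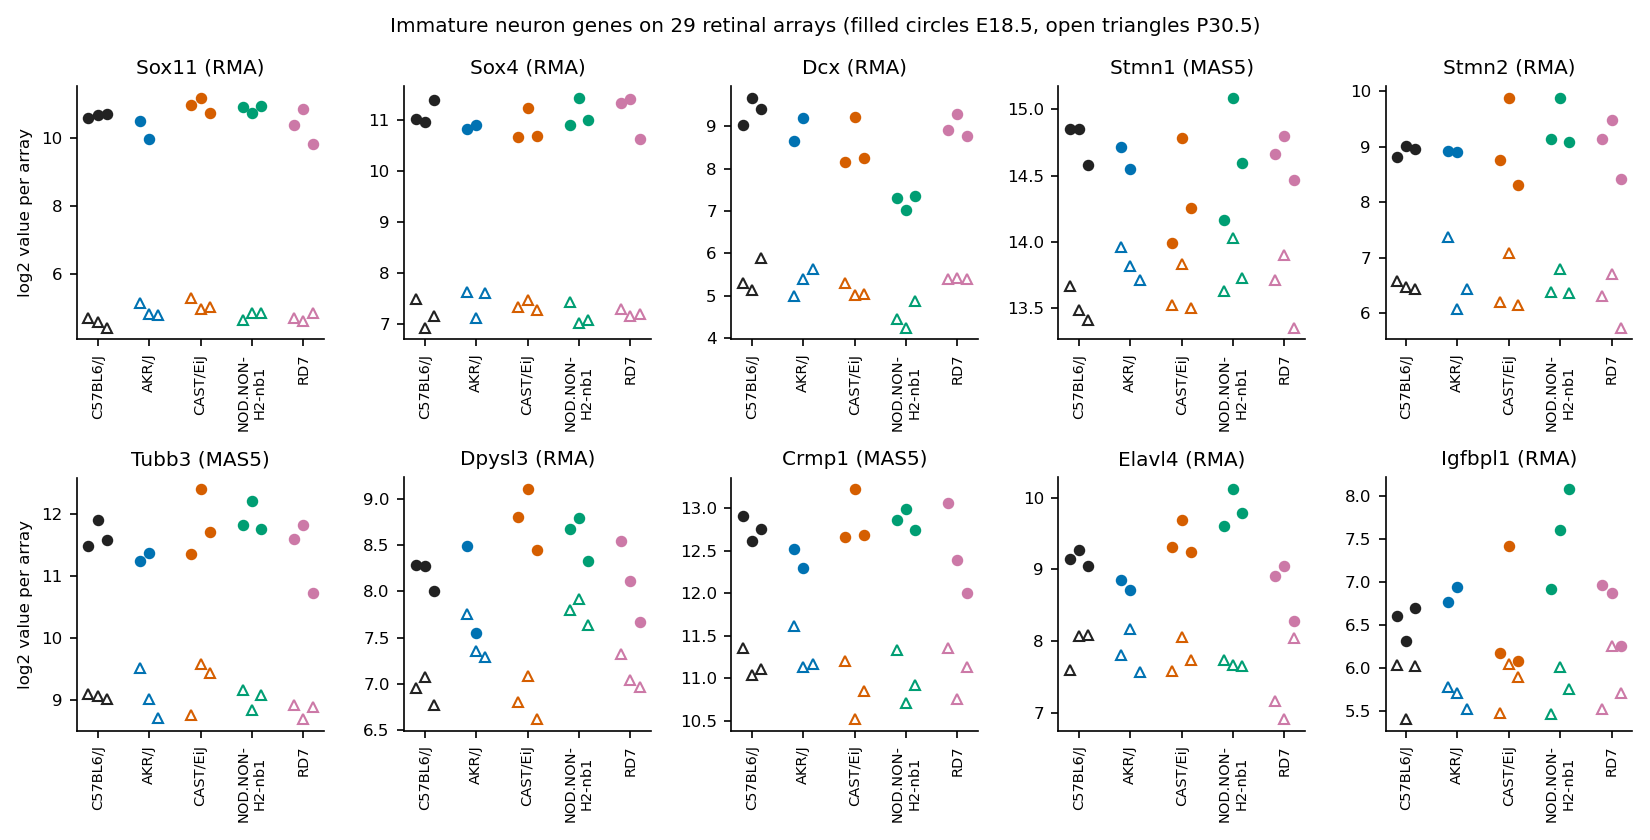
Log2 value of each of the 10 genes on each of the 29 arrays, by strain, with RMA or MAS5 named above each panel. Filled circles are E18.5 arrays and open triangles P30.5 arrays. Every E18.5 array lies above every P30.5 array for Sox11, Sox4, Dcx, Stmn2, Tubb3, Crmp1 and Elavl4, whose E18.5 values begin at 9.84 for Sox11 while its P30.5 values end at 5.30.

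Sox11 had log2 values at E18.5 of 10.58, 10.67 and 10.72 in C57BL6/J, 10.40, 10.86 and 9.84 in RD7, 10.97, 11.19 and 10.73 in CAST/EiJ, 10.52 and 9.98 in AKR/J and 10.93, 10.73 and 10.93 for NOD.NON-H2-nb1. At P30.5 they were 4.71, 4.61 and 4.44 in C57BL6/J, 4.71, 4.62 and 4.87 in RD7, 5.30, 4.99 and 5.06 in CAST/EiJ, 5.16, 4.85 and 4.80 in AKR/J and 4.66, 4.87 and 4.86 for NOD.NON-H2-nb1. The ages did not overlap, and the lowest E18.5 array, RD7 replicate 3, was still far above the highest P30.5 array, CAST/EiJ replicate 1. The fall was 67.0-fold in C57BL6/J (log2 change -6.07 ± 0.19, SE, limma adjusted p = 1.54e-17), 66.8-fold in NOD.NON-H2-nb1, 57.6-fold in CAST/EiJ, 49.6-fold in RD7 and 39.7-fold in AKR/J (log2 change -5.31 ± 0.21, adjusted p = 2.15e-15). These folds depend on the dim P30.5 values, which all lay under the log2 limit of 6 used here for dim probe sets. With MAS5 signals the fall of Sox11 was 33.9-fold in C57BL6/J, 33.5-fold in RD7, 40.1-fold in CAST/EiJ, 41.1-fold in AKR/J and 42.2-fold for NOD.NON-H2-nb1, so that the order of the strains is not settled. The changes of the 18194 genes were also ranked from the most negative, with RMA values for 12349 genes and MAS5 values for the others. Sox11 stood at position 11 in C57BL6/J, 15 in RD7, 9 in NOD.NON-H2-nb1, 48 in AKR/J and 16 in CAST/EiJ. The 2 scales are not alike. The 16 added to each MAS5 signal shrinks the changes of dim probe sets, but RMA values can give the smaller change, as for Igfbpl1 in C57BL6/J. Without RD7 replicate 3 of E18.5 the change in RD7 was -5.89, and without CAST/EiJ replicate 2 of E18.5 that in CAST/EiJ was -5.73.

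Sox4, the partner of Sox11 in the SoxC group, was at 11.03, 10.97 and 11.41 in C57BL6/J at E18.5, at 11.34, 11.42 and 10.64 in RD7, at 10.68, 11.25 and 10.70 in CAST/EiJ, at 10.83 and 10.91 in AKR/J and at 10.91, 11.45 and 11.01 for NOD.NON-H2-nb1. At P30.5 its log2 values were 7.49, 6.93 and 7.17 in C57BL6/J, 7.29, 7.16 and 7.20 in RD7, 7.33, 7.47 and 7.28 in CAST/EiJ, 7.63, 7.12 and 7.61 in AKR/J and 7.43, 7.03 and 7.07 for NOD.NON-H2-nb1. Here, too, no P30.5 array reached the E18.5 range. The fall lay between 10.7-fold in AKR/J (log2 change -3.42 ± 0.23) and 15.4-fold in NOD.NON-H2-nb1 (-3.94 ± 0.21), with limma adjusted p-values between 1.66e-13 and 3.18e-11.

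Dcx encodes doublecortin, a microtubule-associated protein of migrating neurons. Its log2 values at E18.5 were 9.04, 9.68 and 9.41 in C57BL6/J, 8.93, 9.29 and 8.78 in RD7, 8.16, 9.21 and 8.25 in CAST/EiJ, 8.65 and 9.21 in AKR/J and 7.30, 7.01 and 7.35 for NOD.NON-H2-nb1. At P30.5 they were 5.30, 5.13 and 5.90 in C57BL6/J, 5.39, 5.43 and 5.39 in RD7, 5.31, 5.02 and 5.05 in CAST/EiJ, 4.99, 5.39 and 5.63 in AKR/J and 4.45, 4.25 and 4.87 for NOD.NON-H2-nb1. The NOD.NON-H2-nb1 arrays were the 3 lowest at either age. With RMA values the age change was largest in C57BL6/J at 15.3-fold (log2 change -3.93 ± 0.25, limma adjusted p = 5.83e-12) and smallest in NOD.NON-H2-nb1 at 6.50-fold (-2.70 ± 0.25, adjusted p = 4.66e-09). This order did not hold on the MAS5 signals of the same probe set, where the changes ran from -3.09 in CAST/EiJ to -3.75 in RD7, nor on the brightest Dcx probe set, 1418139_at, where NOD.NON-H2-nb1 had the largest change at -5.15, beside -4.15 in C57BL6/J and -4.09 in AKR/J.

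Tubb3, the neuronal beta-tubulin, fell by between 4.71-fold in AKR/J and 7.50-fold in NOD.NON-H2-nb1, with limma adjusted p-values between 2.16e-08 and 8.02e-06. Its log2 MAS5 values at E18.5 were 11.49, 11.91 and 11.59 in C57BL6/J, 11.60, 11.83 and 10.73 in RD7, 11.35, 12.41 and 11.71 in CAST/EiJ, 11.25 and 11.38 in AKR/J and 11.82, 12.22 and 11.77 for NOD.NON-H2-nb1. At P30.5 they were 9.09, 9.06 and 9.02 in C57BL6/J, 8.92, 8.69 and 8.89 in RD7, 8.76, 9.58 and 9.44 in CAST/EiJ, 9.52, 9.01 and 8.71 in AKR/J and 9.16, 8.84 and 9.08 for NOD.NON-H2-nb1. The lowest E18.5 array was RD7 replicate 3 and the highest was CAST/EiJ replicate 2. The change was -2.88 in RD7 and -2.27 in CAST/EiJ without these arrays, against -2.56 in both with them.

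Stmn2, a stathmin that is bound to membranes of growing axons, was at 8.81, 9.02 and 8.96 in C57BL6/J at E18.5, at 9.13, 9.48 and 8.42 in RD7, at 8.75, 9.88 and 8.31 in CAST/EiJ, at 8.92 and 8.90 in AKR/J and at 9.14, 9.88 and 9.08 for NOD.NON-H2-nb1. At P30.5 its log2 values were 6.58, 6.47 and 6.45 in C57BL6/J, 6.31, 6.72 and 5.75 in RD7, 6.20, 7.08 and 6.15 in CAST/EiJ, 7.38, 6.09 and 6.45 in AKR/J and 6.39, 6.79 and 6.37 for NOD.NON-H2-nb1. AKR/J replicate 1 was the highest of the P30.5 arrays and remained below all E18.5 arrays. The fall was between 4.84-fold in AKR/J (log2 change -2.28 ± 0.40, limma adjusted p = 6.52e-05) and 7.23-fold in NOD.NON-H2-nb1 (-2.85 ± 0.36, adjusted p = 5.30e-07). The call in AKR/J was lost when either of its 2 E18.5 arrays was left out, at changes of -2.27 and -2.28 with 1 array left. It was also lost with the muscle list as a covariate, where the change was -2.59 ± 0.62 (limma adjusted p = 0.00358). The muscle list in AKR/J was at 11.8 and 11.9 at E18.5 and between 5.58 and 6.07 at P30.5. Age and muscle level therefore cannot be told apart within AKR/J.

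Stmn1 encodes stathmin, a soluble protein that binds tubulin dimers in dividing cells and young neurons. Its representative probe set was bright at both ages and changed less, with log2 MAS5 values between 13.99 and 15.09 (median 14.63) on the 14 E18.5 arrays and between 13.35 and 14.03 (median 13.71) on the 15 P30.5 arrays. These ranges touch because CAST/EiJ replicate 1 of E18.5, at 13.99, lies below NOD.NON-H2-nb1 replicate 2 of P30.5, at 14.03. The log2 change was -1.25 in C57BL6/J (limma adjusted p = 0.000124), the strain with a call, -0.99 in RD7 (adjusted p = 0.00146), -0.82 in NOD.NON-H2-nb1, -0.80 in AKR/J and -0.73 in CAST/EiJ. Its other probe set, 1448113_at, had changes of -2.45, -2.71, -2.38, -2.35 and -2.80 in the same order of strains and was called in all 5. The C57BL6/J call of the representative probe set was near the limit. Without E18.5 replicate 1, E18.5 replicate 2 or P30.5 replicate 3 its limma adjusted p was between 0.00102 and 0.00111. The change itself stayed between -1.34 and -1.19 with any of the 6 arrays left out.

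Crmp1, a collapsin response mediator protein, had log2 MAS5 values between 12.01 and 13.22 (median 12.71) at E18.5 and between 10.52 and 11.61 (median 11.13) at P30.5, with no overlap. It was called lower in CAST/EiJ (log2 change -2.0), NOD.NON-H2-nb1 (-1.87), C57BL6/J (-1.59) and RD7 (-1.41), and not in AKR/J (-1.11 ± 0.28, limma adjusted p = 0.00444). The RD7 call was lost without RD7 replicate 1 of E18.5 (adjusted p = 0.00165) or replicate 2 of P30.5 (0.00149). Dpysl3, its relative, had log2 values at E18.5 of 8.28, 8.27 and 8.0 in C57BL6/J, 8.54, 8.11 and 7.67 in RD7, 8.80, 9.11 and 8.45 in CAST/EiJ, 8.49 and 7.55 in AKR/J and 8.68, 8.79 and 8.33 for NOD.NON-H2-nb1. At P30.5 they were 6.95, 7.07 and 6.77 in C57BL6/J, 7.32, 7.04 and 6.97 in RD7, 6.81, 7.09 and 6.62 in CAST/EiJ, 7.75, 7.36 and 7.29 in AKR/J and 7.80, 7.92 and 7.63 for NOD.NON-H2-nb1. The ages overlapped in AKR/J, where the second E18.5 array lay below the highest P30.5 array, and the P30.5 values of NOD.NON-H2-nb1 were above those of C57BL6/J. Dpysl3 was called in CAST/EiJ (log2 change -1.94 ± 0.23, limma adjusted p = 1.97e-07) and C57BL6/J (-1.25, adjusted p = 7.59e-05). In RD7 its adjusted p of 0.000899 passed and its fold of 1.997 did not reach the limit, and in AKR/J the change was -0.55 (adjusted p = 0.0861).

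Elavl4, which binds and stabilizes messenger RNAs of neurons, was at 9.14, 9.27 and 9.04 in C57BL6/J at E18.5, at 8.91, 9.05 and 8.29 in RD7, at 9.31, 9.69 and 9.24 in CAST/EiJ, at 8.86 and 8.71 in AKR/J and at 9.60, 10.12 and 9.78 for NOD.NON-H2-nb1. At P30.5 its log2 values were 7.60, 8.08 and 8.09 in C57BL6/J, 7.17, 6.92 and 8.04 in RD7, 7.59, 8.06 and 7.74 in CAST/EiJ, 7.81, 8.16 and 7.58 in AKR/J and 7.74, 7.67 and 7.65 for NOD.NON-H2-nb1. The NOD.NON-H2-nb1 arrays held 2 of the 3 highest E18.5 values. The change ran from -0.93 in AKR/J (limma adjusted p = 0.0064, not called) to -2.15 in NOD.NON-H2-nb1 (adjusted p = 6.98e-08). The C57BL6/J call, at -1.23, was lost without E18.5 replicate 2 (adjusted p = 0.00125) or P30.5 replicate 1 (0.00187).

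Igfbpl1 had the lowest count of calls together with Stmn1. Its log2 values at E18.5 were 6.61, 6.31 and 6.70 in C57BL6/J, 6.96, 6.87 and 6.26 in RD7, 6.17, 7.41 and 6.08 in CAST/EiJ, 6.77 and 6.94 in AKR/J and 6.92, 7.60 and 8.08 for NOD.NON-H2-nb1. At P30.5 they lay between 5.41 and 6.26 with a median of 5.75, and overlapped the E18.5 range over all strains, though not within any single strain. It was called in NOD.NON-H2-nb1 (log2 change -1.79, limma adjusted p = 3.69e-05), while the changes in the other strains lay between -0.72 and -1.18. With log2 MAS5 values the same probe set fell more in C57BL6/J, from between 6.17 and 7.12 at E18.5 to between 4.27 and 4.42 at P30.5. In CAST/EiJ the ages overlapped on that scale, with an E18.5 array at 4.48 and a P30.5 array at 4.81. The P30.5 MAS5 signals were dim, at most 33.1, so that the size of the change is not settled. Its second probe set, 1450960_at, was called in 4 strains, with changes between -1.07 and -2.12, and not in RD7, where the change was -0.95 (adjusted p = 0.000251).

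**Figure D2:**
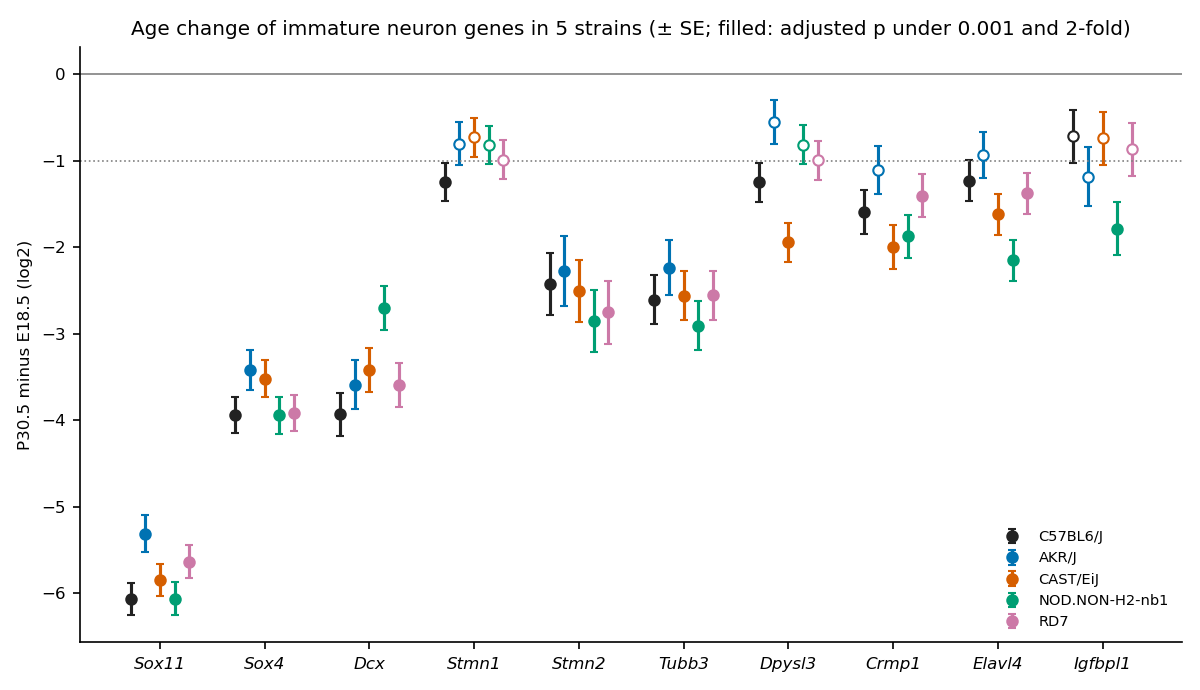
P30.5 minus E18.5 on the log2 scale for the 10 genes in the 5 strains, with bars for the SE of the limma fit and filled symbols for calls. All 50 points lie below 0, from -6.07 for Sox11 in C57BL6/J to -0.55 for Dpysl3 in AKR/J, and the dotted line marks a 2-fold fall.

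Over all strains, 7 of the 10 genes had all 14 E18.5 arrays above all 15 P30.5 arrays, which held for 8.67% of all genes, and the 3 with overlap were Stmn1, Dpysl3 and Igfbpl1. Within single strains 9 genes had all E18.5 arrays above all P30.5 arrays in AKR/J (30.1% of all genes), and 10 of 10 had so in C57BL6/J (25.8%), RD7 (23.6%), NOD.NON-H2-nb1 (23.7%) and CAST/EiJ (23.0%). Arrays also carried a date in their titles, and most dates held both ages. Within a strain and date there were 13 differences between the ages for each gene, and 130 of the 130 were below 0, from -6.27 to -0.18. Those of Sox11 lay between -6.27 and -4.98. Where the ages do not overlap within a strain, the sign of these differences is fixed in advance. Only for Dpysl3 in AKR/J could it have differed, so that the count is no separate check on the date.

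Of the 32 probe sets, 25 were called lower with age in C57BL6/J, 22 in RD7, 23 in NOD.NON-H2-nb1, 19 in AKR/J and 25 in CAST/EiJ. Over all probe sets the shares called lower were 6.99%, 6.67%, 6.34%, 6.02% and 5.84%. The 6 Sox11 probe sets were called in every strain. Of the 8 Sox4 probe sets, 5 were called in every strain (1419155_a_at, 1419156_at, 1419157_at, 1433575_at and 1449370_at), 1455867_at was called in RD7 alone (log2 change -1.91, limma adjusted p = 0.000557), and 1443778_at and 1458332_x_at, whose MAS5 signals never passed 47.8 and 52.7, were called in none. Of the 4 Dcx probe sets, 1418139_at changed by between -4.09 and -5.15 on the log2 scale and was called in all 5 strains, and 1418140_at and 1448974_at, with MAS5 signals of at most 116.6 and 71.1, were called in none. The remaining probe sets of Stmn2, Dpysl3 and Elavl4 were lower at P30.5 in every strain. Among these, 1423280_at of Stmn2 and 1428741_at of Elavl4 were called in all 5. The calls of 1428741_at rest on RMA values. With MAS5 signals its mean fall was under 2-fold in C57BL6/J, RD7 and AKR/J. In AKR/J its log2 MAS5 values were 9.70 and 9.71 at E18.5 and 9.56, 8.99 and 8.69 at P30.5.

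The size of the age change was compared between strains through the interaction with C57BL6/J. These comparisons, and the strain comparisons below, share the C57BL6/J arrays. AKR/J had the smallest age change of the 5 strains for Sox11, Sox4, Stmn2, Tubb3, Dpysl3, Crmp1 and Elavl4, though with MAS5 signals not for Sox11 (-5.36, against -5.07 in RD7) or Stmn2 (-2.26, against -2.05 in C57BL6/J), and its changes lay above those of C57BL6/J for 9 of the 10 genes, by a median of 0.41 on the log2 scale. At E18.5 the AKR/J values lay below those of C57BL6/J for 9 of the 10 genes, by a median of -0.31. None of the 10 passed an adjusted p of 0.05 in limma in the interaction of RD7 (0 at an unadjusted p under 0.05), NOD.NON-H2-nb1 (3), AKR/J (1) or CAST/EiJ (1), where 1.21%, 0.649%, 4.23% and 4.74% of all genes did. Both AKR/J arrays of E18.5 had the high muscle list levels of 11.8 and 11.9, against 6.0 to 6.23 in C57BL6/J. With the muscle level as a covariate 4 of the 10 genes were called lower with age in AKR/J instead of 5. The lost one was Stmn2, at -2.59 with a larger SE. Within AKR/J the muscle level differed between the ages on all arrays, so that the 2 cannot be told apart there.

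Calls between strains of the same age were few, among these genes as among all genes. At E18.5, 0 of the 10 genes were called different from C57BL6/J in RD7, 1 in NOD.NON-H2-nb1, 0 in AKR/J and 0 in CAST/EiJ, where 0.319%, 0.813%, 3.58% and 4.57% of all genes were called. At P30.5 there was no call among the 10 genes in any strain, beside 0.357%, 0.890%, 1.0% and 3.94% of all genes. At an unadjusted p under 0.05 in limma, 0, 3, 0 and 2 of the 10 genes differed at E18.5 and 1, 2, 1 and 1 at P30.5. The SE of a difference between groups of 3 arrays was between 0.19 and 0.36 on the log2 scale.

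The 1 call was Dcx in NOD.NON-H2-nb1, and its probe sets did not move together. On probe set 1418141_at the 3 NOD.NON-H2-nb1 arrays of E18.5 were at 7.30, 7.01 and 7.35 and the C57BL6/J arrays at 9.04, 9.68 and 9.41, with no overlap. The difference was 4.45-fold (log2 -2.15 ± 0.25, SE, limma adjusted p = 1.89e-06), and it was -2.33 and -1.74 within the 2 dates that hold arrays of both strains. At P30.5 the difference was -0.92 (adjusted p = 0.0275, not called). With MAS5 signals the same probe set gave -2.19 at E18.5 (adjusted p = 8.27e-05). The MAS5 difference at P30.5 was -1.96 (adjusted p = 0.000303), and both were called. The brightest Dcx probe set, 1418139_at, went the other way: its log2 MAS5 values at E18.5 were 12.11, 12.38 and 11.91 in NOD.NON-H2-nb1 and 11.49, 11.77 and 11.62 in C57BL6/J, a difference of 0.50 (adjusted p = 0.481). The dim 1418140_at gave 0.57 (adjusted p = 0.156). The muscle list levels of the 3 NOD.NON-H2-nb1 arrays were 11.0, 6.13 and 8.26, in the order of the values above. What part they have in the Dcx difference was not tested.

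**Figure D3:**
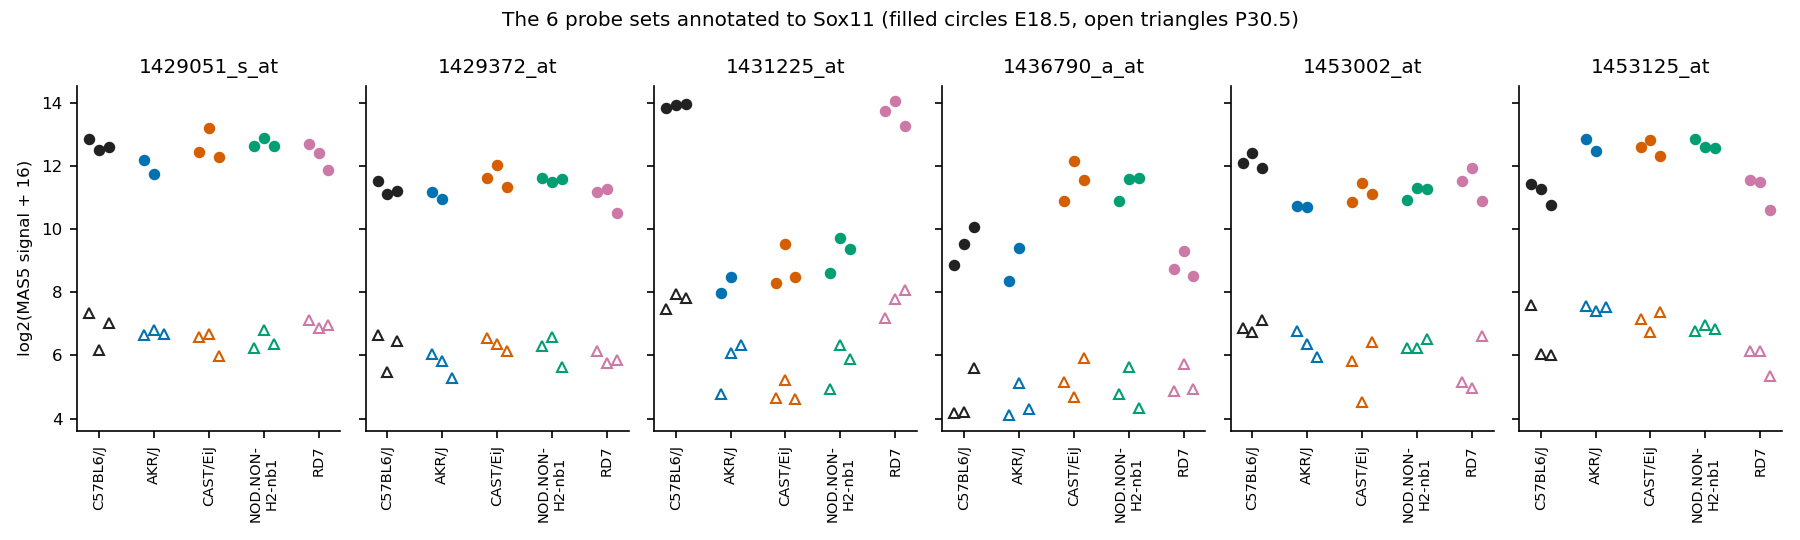
Log2(MAS5 signal + 16) of the 6 probe sets annotated to Sox11 on the 29 arrays, by strain, with filled circles for E18.5 and open triangles for P30.5. On 1431225_at the NOD.NON-H2-nb1, AKR/J and CAST/EiJ arrays of E18.5 lie between 7.98 and 9.71, apart from the C57BL6/J and RD7 arrays between 13.26 and 14.04.

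Among the probe sets of Sox11, strain differences at E18.5 ran in opposite directions. Where in the gene each probe set lies, and whether a strain differs in sequence there, was not analysed here, so that these are differences of single probe sets. Probe set 1431225_at had log2 MAS5 values of 13.84, 13.92 and 13.95 in C57BL6/J and 13.73, 14.04 and 13.26 in RD7, but 8.62, 9.71 and 9.37 for NOD.NON-H2-nb1 arrays, 7.98 and 8.48 in AKR/J, and 8.31, 9.52 and 8.48 in CAST/EiJ. C57BL6/J and RD7 shared a range that did not overlap with that of the other 3 strains. Relative to C57BL6/J it was 51.1-fold lower in AKR/J (log2 -5.67 ± 0.45, SE, limma adjusted p = 1.70e-08), 35.2-fold lower in CAST/EiJ (-5.14 ± 0.40, adjusted p = 2.26e-09) and 25.4-fold lower in NOD.NON-H2-nb1 (-4.67 ± 0.40, adjusted p = 4.37e-08), and -0.23 in RD7 (adjusted p = 0.897). Within dates the differences were -4.55 and -5.22 for NOD.NON-H2-nb1 arrays, -5.44 and -5.86 in AKR/J and -5.44 and -5.53 in CAST/EiJ. At P30.5 the differences were -2.03 in NOD.NON-H2-nb1, -2.01 in AKR/J and -2.92 in CAST/EiJ (adjusted p = 1.21e-05, called). On this probe set the age change was -6.15 in C57BL6/J and -6.00 in RD7. It was -3.52 in NOD.NON-H2-nb1, -2.49 in AKR/J and -3.94 in CAST/EiJ.

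Probe set 1436790_a_at of Sox11 was instead higher in NOD.NON-H2-nb1 and CAST/EiJ. Its log2 RMA values at E18.5 were 7.22, 7.91 and 8.01 in C57BL6/J, 7.05, 7.32 and 6.77 in RD7, 9.36, 10.43 and 9.97 in CAST/EiJ, 6.57 and 7.90 in AKR/J and 9.39, 10.17 and 10.05 for NOD.NON-H2-nb1. The difference from C57BL6/J was 4.61-fold in CAST/EiJ (log2 2.21 ± 0.28, limma adjusted p = 1.47e-06). In NOD.NON-H2-nb1 it was 4.46-fold (2.16 ± 0.28, adjusted p = 7.90e-06). Within dates they were 2.14 and 2.17 in NOD.NON-H2-nb1 and 2.06 and 2.14 in CAST/EiJ. The MAS5 signals of this probe set gave 2.06 in CAST/EiJ (adjusted p = 0.00263) and 1.88 for the other strain (adjusted p = 0.0242), which are no calls. The representative probe set, 1429372_at, differed from C57BL6/J by 0.21 in NOD.NON-H2-nb1, -0.41 in AKR/J and 0.31 in CAST/EiJ, and 1429051_s_at by 0.07, -0.68 and 0.00. Probe set 1453125_at gave differences of 1.52, 1.5 and 1.43 in this order without a call (adjusted p = 0.00995, 0.0117 and 0.00376). Those of 1453002_at were -0.99, -1.43 and -1.01, also without a call.

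Sox4 had 1 probe set that set CAST/EiJ apart. On 1449370_at the log2 values at E18.5 were 6.38, 6.65 and 6.89 in CAST/EiJ and 8.35, 8.40 and 8.79 in C57BL6/J, a 3.67-fold difference (log2 -1.88 ± 0.19, SE, limma adjusted p = 4.50e-08) that was -1.52 and -1.97 within dates. With MAS5 signals it was -1.48 (adjusted p = 0.00398), below the call. The other Sox4 probe sets showed -0.26 (1419155_a_at), -0.14 (1433575_at) and -0.03 (1419157_at) in the same comparison. Counting probe sets, at E18.5 2 of the 32 were called lower and 1 higher in NOD.NON-H2-nb1, where 0.772% and 0.275% of all probe sets were. For AKR/J 1 was called lower and 0 higher (1.10% and 1.67%), and in CAST/EiJ 2 lower and 1 higher (3.46% and 1.77%). At P30.5 the 1 call was 1431225_at, lower in CAST/EiJ (2.92% of all probe sets, and 1.54% called higher). Against C57BL6/J, 0 of the 32 were called at that age for either AKR/J or NOD.NON-H2-nb1, where 0.778% and 0.687% of all probe sets were called lower and 0.313% and 0.386% higher.

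RD7 had no call against C57BL6/J on any of the 32 probe sets at either age, where 0.0222% and 0.164% of all probe sets were called lower and higher at E18.5 and 0.0621% and 0.177% at P30.5. Its replicate 3 of E18.5 stood low in other neuronal lists too. The mean log2 signal of 29 neurite growth genes was 11.0 on that array and 11.5 and 11.6 on the others, and that of 9 ganglion cell markers was 9.87 against 10.6 and 10.5. The muscle list was at 11.2 on it, and at 7.15 and 11.8 on the others. CAST/EiJ replicate 2 of E18.5 had ganglion cell markers at 10.8 against 9.93 and 10.1, and its title date was shared with RD7 replicate 2 and NOD.NON-H2-nb1 replicate 2. The 3 E18.5 arrays of this date were the highest of their group in 24 of 30 gene values and the lowest in 2. The 4 P30.5 arrays of this date were the highest in 17 of 40 gene values and the lowest in 16. Genes on the same array are not independent values. What part these list levels have in the values of the immature neuron genes was not tested. Without CAST/EiJ replicate 2, Dcx at E18.5 was called lower than in C57BL6/J (log2 -1.17, limma adjusted p = 0.000862), against -0.84 (adjusted p = 0.0157) with it. Without RD7 replicate 3, 8 genes instead of 7 were called lower with age in RD7.

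The families of these genes did not share one direction. Of 29 paralogs with a value, 7 were called lower and 2 higher with age in C57BL6/J, 6 and 2 in RD7, 5 and 1 in CAST/EiJ, 7 and 2 in AKR/J and 9 and 2 in NOD.NON-H2-nb1. Of all genes, between 7.82% and 8.95% were called lower and between 7.30% and 8.45% higher in these strains. Calls higher were thus no more frequent among the paralogs than among all genes. Among 10 other tubulin genes, Tubb2b (log2 age changes between -3.64 and -4.54) and Tubb6 (between -2.37 and -3.77) were called lower in all 5 strains, while Tuba4a (between 1.53 and 2.26) was called higher in all 5 and Tuba8 in 4. Stmn4, a stathmin of neurons, was called lower in all 5 (between -1.32 and -2.30), and Stmn3 in none (between -0.34 and 0.58). Sox12, the third SoxC gene, was called in none and lay between -0.30 and -0.87. Dpysl5 and the doublecortin-like kinase Dclk2 were each called lower in 3 strains, Elavl2 and Elavl3 each in NOD.NON-H2-nb1 alone, and Dpysl2, Dpysl4, Dclk1, Dclk3 and Elavl1 in none. Among the insulin-like growth factor binding proteins, Igfbp2 was called lower in all 5 (between -1.61 and -2.90) and Igfbp3 in 2. Igfbp3 changed by -0.58 in C57BL6/J and -4.90 in AKR/J. The muscle, periocular mesenchyme and pigment epithelium lists also differed between these strains at E18.5. What part these tissues have in the Igfbp3 values was not tested.

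**Figure D4:**
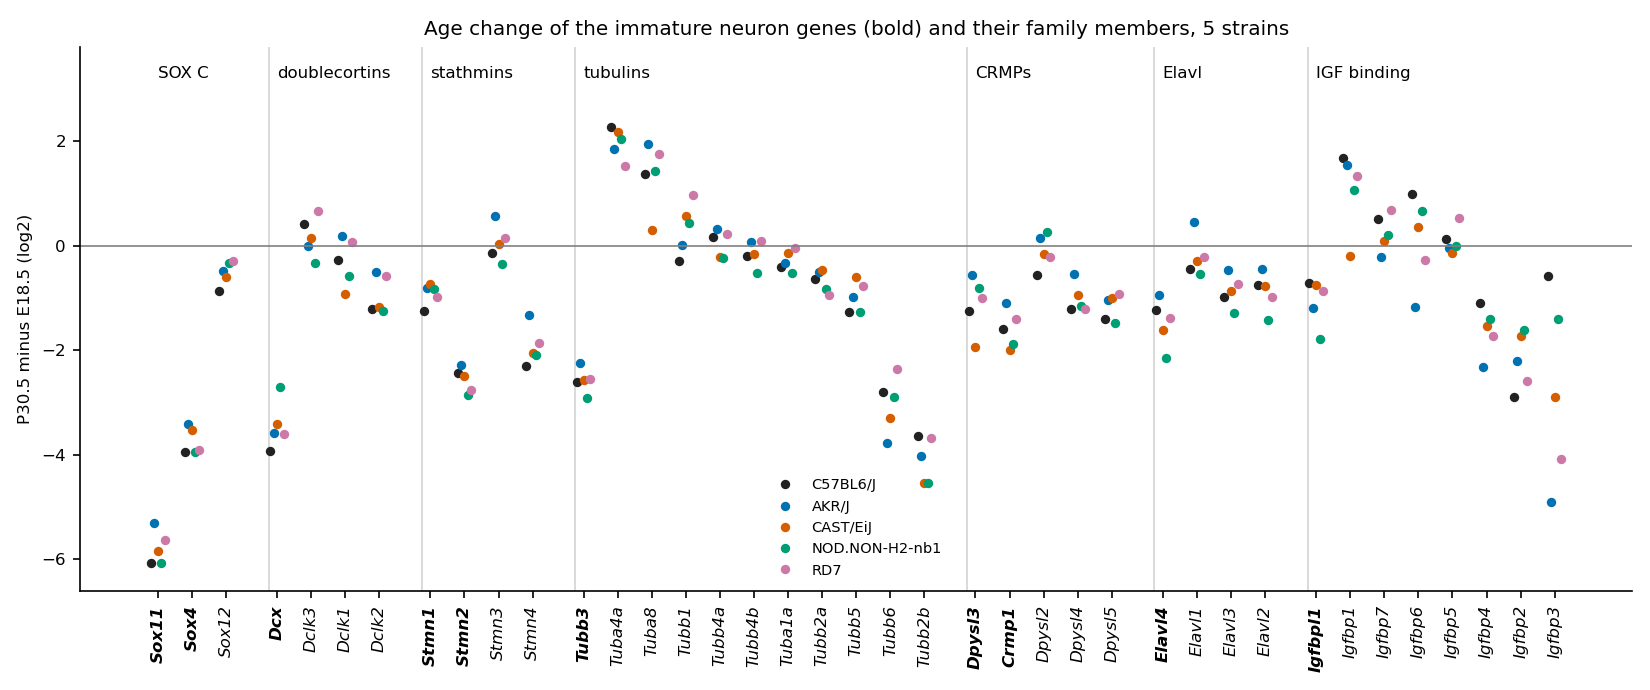
P30.5 minus E18.5 on the log2 scale for the 10 immature neuron genes (bold) and their family members, 1 point per strain. Sox11 lies between -5.31 and -6.07 and Sox12 between -0.30 and -0.87, and Tuba4a lies between 1.53 and 2.26 above 0 while Tubb2b and Tubb6 lie below it.

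Other genes of neuronal birth and growth showed the same direction in part. The shares of all genes were again 7.82% to 8.95% called lower and 7.30% to 8.45% called higher. Of 17 neurogenic transcription factors, 8, 7, 8, 6 and 7 were called lower in C57BL6/J, RD7, NOD.NON-H2-nb1, AKR/J and CAST/EiJ, the order used for the next lists too, and none higher. Neurog2, a proneural factor of progenitors, changed by between -4.93 and -5.82 and Hes6, an antagonist of Hes1, by between -3.11 and -4.04, both called in all 5, whereas Neurod1 and St18 were called in none. Of 29 neurite growth and migration genes, 8, 7, 14, 7 and 9 were called lower and 1, 1, 1, 2 and 1 higher, with Nnat (between -3.77 and -4.86) lower and Nfasc, a cell adhesion protein of the axon initial segment (between 1.29 and 2.16), higher in all 5. Of 18 mature neuron genes none was called lower and 10, 13, 11, 13 and 10 were called higher. The neurofilament gene Nefh rose by between 3.04 and 3.87 and the chloride transporter gene Slc12a5 by between 2.81 and 3.83, while Nefm (between -0.76 and -0.23) and Vamp2 (between 0.08 and 0.50) were not called. Of 12 progenitor and cell cycle genes, 12, 10, 12, 11 and 11 were called lower, with Mki67 between -7.36 and -9.11. Of 9 ganglion cell markers, 2, 2, 2, 1 and 2 were called lower and 1, 2, 1, 3 and 1 higher: Pou4f1, a transcription factor of ganglion cells, was lower in all 5 (between -2.06 and -2.98) and Thy1, a surface protein of these cells, was higher in all 5 (between 1.69 and 2.51).

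The genes whose 5 age changes lay closest to the median of the 10 immature neuron genes, by Euclidean distance over the strains, were Hes1, a Notch target of progenitors (distance 0.283), Efnb2, a ligand of Eph receptors (0.343), Eif4ebp1, a repressor of translation (0.378), Cyb5b (0.389) and Arnt2 (0.420). Only genes with RMA values were searched, while the median includes Stmn1, Tubb3 and Crmp1 on the MAS5 scale. Hes1 changed by -2.20 in C57BL6/J, -1.89 in RD7, -2.40 in NOD.NON-H2-nb1, -1.55 in AKR/J and -2.15 in CAST/EiJ.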

How the data were processed

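RNA of pooled mouse retinas was hybridized by the authors to Affymetrix arrays, which the methods name Mouse 420A 2.0, while the annotation used lists their probe sets under another Affymetrix mouse platform. The log2 values, deposited under the name RMA (robust multi-array averaging), were used as the authors made them. They cover 25444 of 45101 probe sets, and the rule for leaving out the others is not given in the sources used here. The deposited intensity values are linear MAS5 signals, whose mean after trimming 2% at each end was 500.0 on each array, and log2(signal + 16) was used. Array medians were 6.74 to 6.95 for the RMA values, replicates correlated at 0.931 to 0.991, and the number of arrays limits the precision. The authors' fold changes were not used.

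Probe sets were named from the platform annotation: 34958 had 1 symbol, 932 several and 9211 none listed. One mean per group was fitted with limma 3.58.1 in R 4.3.3 over all 29 arrays (19 residual degrees of freedom), and p-values were adjusted by Benjamini-Hochberg within each contrast over the whole table. A call needed an adjusted p under 0.001 and 2-fold, and an interaction an adjusted p under 0.05. The fit was tested on simulated data. Each array held 1 pool, and p-values measure the spread between pools, not between mice.

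The members and lists were chosen with earlier results of these data known. Named were all 10 members with each probe set, of every other list at most the 2 genes with the highest and the 2 with the lowest mean age change, and the 5 genes with RMA values nearest to the members' median. Genes of the lists that were not matched were not analysed here.

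Alternatives covered MAS5 signals, pseudocounts of 1 and 64, centring, repeated quantile normalization, the array date as a fixed or random block, only the groups compared, no RD7 arrays, a trend and robust prior, no dim probe sets, other thresholds, other probe sets, the muscle level as a covariate and each array left out. Arrays with the same title date deviated together: the mean correlation of their deviations from the group means was 0.261 over 120 pairs from different groups, and -0.121 over 258 pairs of different dates. The replicate numbers follow the arrays' order and pair nothing. A fixed date block drops C57BL6/J replicate 3 of E18.5, the only array of its date.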

Additional observations from a re-analysis of the deposited data

Results flagged for a closer look

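The age change of 3 probe sets differed between strains by a limma interaction test, although none of the 10 representative probe sets did. On 1436790_a_at of Sox11 the age change was more negative than in C57BL6/J by -1.86 in CAST/EiJ (SE 0.394, adjusted p = 0.0047) and by -2.23 in NOD.NON-H2-nb1 (SE 0.394, adjusted p = 0.00304). With MAS5 signals the same differences were -1.46 (adjusted p = 0.351) and -1.64 (adjusted p = 0.599). On 1431225_at of Sox11, measured with MAS5 signals, the age change in AKR/J was less negative by 3.66 (SE 0.603, adjusted p = 0.00367), and by 2.77 with the muscle level as a covariate (adjusted p = 0.337). On 1449370_at of Sox4 the age change in CAST/EiJ was less negative by 1.82 (SE 0.267, adjusted p = 0.000126), and by 1.52 with MAS5 signals (adjusted p = 0.144).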

How the results depend on the processing

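The counts of called immature neuron genes moved by no more than 1.5 times in 399 of 408 alternative values. With only the groups compared in the fit, 5 instead of 8 genes were called lower with age in CAST/EiJ and 4 instead of 7 in RD7, where fewer arrays estimate the spread. With MAS5 signals for all genes, 1 gene instead of 0 (Dcx) was called between NOD.NON-H2-nb1 and C57BL6/J at P30.5. With MAS5 signals and the probe set of highest MAS5 mean, an alternative chosen after seeing the data, 0 instead of 1 were called between these strains at E18.5, and Dcx reversed to 0.50 (adjusted p = 0.481). With the probe set of lowest mean, 1 gene instead of 0 (Sox11) was called between CAST/EiJ and C57BL6/J at E18.5 and in the interactions of CAST/EiJ (1) and NOD.NON-H2-nb1 (1), and Dcx reversed to 0.57 for NOD.NON-H2-nb1 at E18.5 (adjusted p = 0.156) and to 0.00215 for the age change in RD7 (adjusted p = 0.994). Under a replicate block for the date in the array title, 1 gene instead of 0 (Dpysl3, 0.92, adjusted p = 0.0347) passed in the interaction of AKR/J. Under this block and under a random block no other count moved by over 1.5 times and 49 of 49 single results kept their call.

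With 1 array left out at a time, 7 to 9 genes were called lower with age in C57BL6/J, 4 to 5 in AKR/J, 8 in NOD.NON-H2-nb1 and CAST/EiJ, and 6 to 8 in RD7. The count between CAST/EiJ and C57BL6/J at E18.5 was 0 to 1, with 1 (Dcx) only without CAST/EiJ replicate 2. Leaving out an AKR/J array of E18.5 leaves 1, assumed to vary like the other groups. Of 1104 values of single results, 1059 kept their call, 42 lost it with the same direction and 3 reversed, all 3 of Dcx. Except where stated, the cause was not tested. The dim probe sets of Sox4 and Dcx, with signals up to 116.6, limit what can be seen of them.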
